A study of Homo sapiens with 6 samples.

Results

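MHC class I presentation in A549 cells was followed through 9 genes. They were the heavy chains HLA-B, HLA-C, HLA-E and HLA-F, the light chain B2M, the peptide transporter genes TAP1 and TAP2, the loading factor TAPBP and the transcriptional activator NLRC5. The members were taken by gene symbol, and each of the 9 had a row among the 29845 genes with at least 1 read. A549 is a widely used epithelial cell line derived from a human lung carcinoma. The control group held 3 cultures transfected with the empty pIRES-hrGFP-1a vector, and the TFAM-OE group held 3 cultures transfected with the same vector carrying FLAG-tagged TFAM. TFAM packages mitochondrial DNA and drives its transcription. RNA with a poly(A) tail was sequenced 48 h after transfection, and nothing in the sources used here says that transfected cells were selected, so a culture may hold transfected and untransfected cells.

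Nearly every nucleated cell can display peptides from its own proteins on MHC class I. Peptides cut by the proteasome enter the endoplasmic reticulum through the TAP1-TAP2 transporter, tapasin (the product of TAPBP) holds an empty heavy chain and its B2M partner beside that transporter, and the loaded complex travels to the surface for inspection by CD8+ T cells and natural killer cells. Interferons raise the pathway through factors such as IRF1 and NLRC5, and epithelial cells keep a basal level without them.

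Between 26650854 and 37321956 reads were counted on genes in a library. TFAM mRNA checks the labels, because reads of the transfected coding sequence also align to the gene. It stood at 76.1, 70.2 and 72.7 CPM (reads scaled to library depth) in control replicates 1, 2 and 3 and at 71.9, 77.3 and 83.0 in TFAM-OE replicates 1, 2 and 3. The groups overlapped, and the log2 fold change was 0.08 ± 0.10 (SE, adjusted p = 0.623, edgeR). Because TFAM mRNA did not separate the groups, the second group is called the libraries labelled TFAM-OE, and every direction is drawn from those labels. The study probed the FLAG-tagged protein by western blot, a measurement not analysed here. Keratins marked the cells as epithelial, with KRT7, KRT8 and KRT18 at control means of 1376, 714 and 495 FPKM (fragments per kilobase of transcript, scaled to library depth), whereas EPCAM and CDH1 were low at 0.193 and 0.753. None of the 6 epithelial markers passed edgeR's test, and 1 was higher at an unadjusted p under 0.05. Of the leukocyte markers PTPRC had 1 read in all 6 libraries, whereas ITGAM, the only one tested, had between 82 and 147 reads in each library. ITGAM did not pass in edgeR (log2 fold change -0.44, unadjusted p = 0.0403, adjusted p = 0.173). The summed FPKM of the leukocyte list lay between 0.65 and 0.88 in control and between 0.49 and 0.63 in the libraries labelled TFAM-OE. The sums for fibroblast markers (0.61 to 0.64 against 0.33 to 0.64) and endothelial markers (0.02 to 0.08 against 0.01 to 0.04) were likewise below the FPKM of every member in each library.

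Expression of the class I pathway was lower in the libraries labelled TFAM-OE for 8 of the 9 genes, and TAPBP was the exception. A gene passed when its adjusted p was below 0.05 in edgeR's quasi-likelihood test over the 16555 genes with enough reads, which all 9 members were. Over all tested genes 4.81% passed as lower and 3.48% as higher, and no member passed as higher, 0 also at an unadjusted p under 0.05 in edgeR and with DESeq2. With a fold of at most 0.5 required in addition, 5 members were called lower (HLA-B, HLA-F, HLA-C, B2M and NLRC5), against 2.07% of all tested genes. Every control library lay above every library labelled TFAM-OE in the same 8 members, and 15.8% of all tested genes were separated in that direction. The median log2 fold change of the members was -1.24, with a range from -2.33 to -0.08, while the median over all tested genes was -0.01. Together the members took 0.3003%, 0.267% and 0.233% of the reads in control replicates 1, 2 and 3, and 0.122%, 0.106% and 0.0984% in TFAM-OE replicates 1, 2 and 3. RNA came from whole cultures, so fewer cells making a transcript and less of it per cell cannot be told apart. The study calls its cultures biological replicates, and the p-values measure the spread among 3 of them per group.

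**Figure D1:**
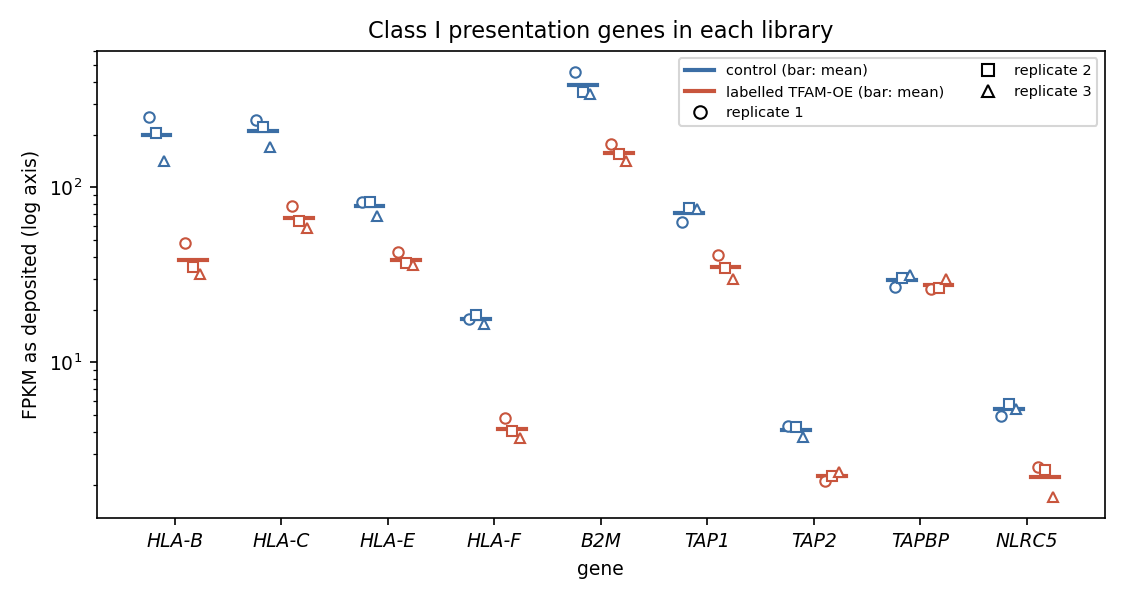
Deposited FPKM (log axis) of the 9 genes in each of the 6 libraries, with a symbol per library (circle, square and triangle for replicates 1, 2 and 3), coloured by group, and a bar at the group mean. The groups are apart in every gene but TAPBP, and B2M is the highest gene in both groups, at mean FPKM values of 383 and 157.

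HLA-B encodes the heavy chain of a classical, highly polymorphic class I molecule (chr6:31353872-31367067, minus strand, GRCh38). Its FPKM was 251, 204 and 142 in control replicates 1, 2 and 3 and 48, 35.02 and 31.9 in TFAM-OE replicates 1, 2 and 3. All 3 control values exceeded all 3 others, and the control libraries were widely spread, with replicate 1 highest and replicate 3 lowest. HLA-B had the largest decrease of the members, with a log2 fold change of -2.33 ± 0.22 (SE, adjusted p = 0.000279), or 0.198 times the control level. In rank among 29656 genes by mean FPKM it went from 258 to 1550.

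HLA-C, the other classical heavy chain described here, also serves as a ligand of killer cell inhibitory receptors (chr6:31268749-31272130, minus strand). It stood at 242, 222 and 169 FPKM in control and at 78.2, 64.0 and 58.9 FPKM in the libraries labelled TFAM-OE, in replicate order. The groups were apart, and the order of the libraries within each group was the one seen for HLA-B. The log2 fold change was -1.62 ± 0.16 (adjusted p = 0.000382), or 0.325 times the control level.

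HLA-E presents mainly leader peptides of other class I chains to NKG2 receptors of natural killer cells (chr6:30489509-30494194, plus strand). Its FPKM was 82.8, 82.5 and 68.6 in control and 42.9, 37.2 and 35.8 in the libraries labelled TFAM-OE. The groups were apart, though by less than for HLA-B and HLA-C. The log2 fold change was -0.98 ± 0.12 (adjusted p = 0.00195). At 0.506 times the control level (95% interval 0.419 to 0.6125) it lay just outside the fold required for a call.

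HLA-F is a nonclassical heavy chain that can reach the cell surface without bound peptide (chr6:29722775-29738528, plus strand). Its level was 17.7, 18.7 and 16.6 FPKM in control and 4.81, 4.03 and 3.69 FPKM in the libraries labelled TFAM-OE. Control libraries agreed closely and stood well above the others. HLA-F had the smallest adjusted p of the members (4.44e-05), with a log2 fold change of -2.05 ± 0.15 and 0.242 times the control level.

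B2M, the light chain of class I molecules, lies outside the MHC (chr15:44711358-44718851, plus strand). Its FPKM was 457, 353 and 339.6 in control and 177, 154 and 141 in the libraries labelled TFAM-OE. It was the most abundant member in each of the 6 libraries, and the lowest control library was above the highest of the others. The log2 fold change was -1.25 ± 0.14 (adjusted p = 0.00117), or 0.42 times the control level.

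TAP1 encodes one chain of the peptide transporter (chr6:32845209-32853816, minus strand). It stood at 63.6, 76.7 and 74.8 FPKM in control and at 41.2, 34.7 and 29.9 FPKM in the libraries labelled TFAM-OE. The groups were apart, and in control, unlike HLA-B and HLA-C, replicate 1 was the lowest. The log2 fold change was -0.99 ± 0.15 (adjusted p = 0.00555), and the ratio of 0.502 to control (95% interval 0.395 to 0.638) was just outside the fold required for a call.

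TAP2 encodes the partner chain (chr6:32821833-32838739, minus strand), and its own FPKM was 4.33, 4.30 and 3.77 in control and 2.10, 2.24 and 2.36 in the libraries labelled TFAM-OE. The groups did not overlap, and both were tight. The log2 fold change was -0.86 ± 0.11 (adjusted p = 0.00175), or 0.55 times the control level (95% interval 0.467 to 0.648). The level of TAP2 itself is uncertain, because the files also hold a readthrough gene joining TAP2 to HLA-DOB (XXbac-BPG246D15.9). It shares 2023 of the 10357 exon bases of TAP2 on the same strand, and 35.3% of the 50-base windows of the TAP2 transcript also occur in it. The readthrough gene was given 3004, 2827 and 3662 reads in control and 2018, 2100 and 1618 in the libraries labelled TFAM-OE, against 1022, 837, 1022, 517, 605 and 492 reads for TAP2. HLA-DOB by itself had at most 12 reads in a library. With the reads of the readthrough gene added to TAP2, an alternative chosen after the data were seen, the log2 fold change was -0.78 (adjusted p = 0.0019).

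TAPBP encodes tapasin, which bridges the transporter and the heavy chain while peptides are exchanged (chr6:33299694-33314284, minus strand). Its FPKM was 27.0, 30.3 and 31.4 in control and 26.2, 26.5 and 29.9 in the libraries labelled TFAM-OE. The groups overlapped, with TFAM-OE replicate 3 above control replicate 1. The log2 fold change was -0.08 ± 0.10 (adjusted p = 0.654), and the 95% interval of the ratio to control ran from 0.808 to 1.10. That interval does not reach the ratio of 0.55 measured for TAP2, the smallest decrease that passed among the members.

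NLRC5, an interferon-induced activator that is recruited to class I promoters, is encoded on another chromosome (chr16:56989485-57083531, plus strand). Its FPKM was 4.93, 5.78 and 5.44 in control and 2.54, 2.43 and 1.71 in the libraries labelled TFAM-OE. The groups were apart, with TFAM-OE replicate 3 lowest, and a library held between 394 and 1630 reads of the gene. The log2 fold change was -1.24 ± 0.18 (adjusted p = 0.00351), or 0.423 times the control level.

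**Figure D2:**
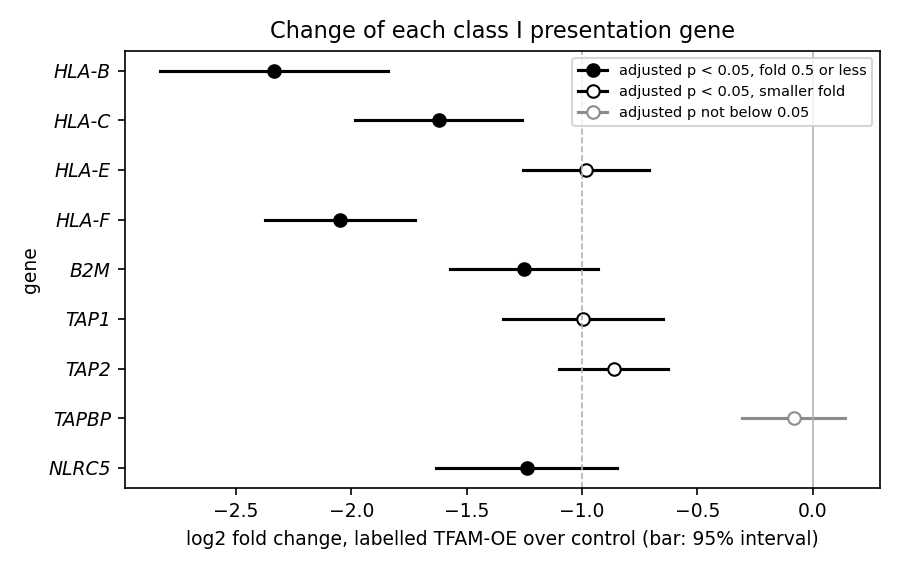
Log2 fold change of each of the 9 genes in the libraries labelled TFAM-OE relative to control, with 95% intervals from the edgeR fit, filled where the adjusted p was below 0.05 and the fold at most 0.5 (dashed line), open black where only the adjusted p was, and grey for TAPBP. The heavy chains run from -2.33 for HLA-B to -0.98 for HLA-E, and the interval of TAPBP alone crosses 0.

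Of the further annotations opposite members on the other strand, 4 could be tested and 3 were lower past the threshold. They were a pseudogene inside HLA-B (XXbac-BPG248L24.12, log2 fold change -2.39), a pseudogene inside HLA-F (HCG4P11, -2.17) and PSMB8-AS1 opposite TAP1 (-0.997). PSMB8-AS1 did not pass without control replicate 2 (adjusted p = 0.074) or TFAM-OE replicate 2 (0.073). A partner of HLA-F, HLA-F-AS1, did not pass (log2 fold change -0.31, adjusted p = 0.748), and RPL23AP1, also opposite HLA-F, had 58 reads in all 6 libraries and was not tested. Whether counting used the strand is not stated, so reads of these partners cannot be told apart from those of the members, and none of these partners had over 307 reads in a library. Of the 50-base windows of the member transcripts, 7.09% in TAPBP, 6.76% in HLA-C, 6.16% in HLA-E, 2.56% in HLA-B, 1.89% in HLA-F and 1.18% in TAP1 also occur in another gene, and none does in B2M or NLRC5.

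Compared per length, the control order of mean FPKM was B2M (383 ± 64.0, SD), HLA-C (211 ± 37.8), HLA-B (199 ± 54.9), HLA-E (78.0 ± 8.12), TAP1 (71.7 ± 7.07), TAPBP (29.6 ± 2.28), HLA-F (17.7 ± 1.00), NLRC5 (5.38 ± 0.428) and TAP2 (4.13 ± 0.315), each with n = 3. The ranges of HLA-C and HLA-B overlapped, as did those of HLA-E and TAP1, so neither pair was ordered beyond its spread. In the libraries labelled TFAM-OE, HLA-E (38.6 ± 3.78) moved level with HLA-B (38.3 ± 8.52) and TAP1 (35.3 ± 5.66), and the ranges of these 3 genes overlapped. TAP2 (2.23 ± 0.130) and NLRC5 (2.23 ± 0.451) also overlapped there.

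The 4 heavy chains followed here changed unequally, so their make-up relative to each other differed between the groups. Within a library, a share of the summed FPKM of HLA-B, HLA-C, HLA-E and HLA-F does not depend on scaling between libraries. Other heavy chains are outside this sum, so it is not the whole heavy-chain pool. The share of HLA-B was 42.3%, 38.7% and 35.8% in control and 27.6%, 24.97% and 24.5% in the libraries labelled TFAM-OE. HLA-E took 13.9%, 15.6% and 17.3% in control and 24.7%, 26.5% and 27.5% in the libraries labelled TFAM-OE. Both separations were complete, with HLA-B lower by a mean difference of -13.2 percentage points and HLA-E higher by 10.6. The share of HLA-C was 41.9% ± 0.971 (SD, n = 3) and 45.3% ± 0.349, and that of HLA-F 3.57% ± 0.613 and 2.82% ± 0.0540. Each of these 4 differences had an exact permutation p of 0.1 (two-sided), the smallest that 3 against 3 libraries can give. Without control replicate 3 the HLA-F difference of -0.748 percentage points was -0.433. With CPM in place of FPKM the HLA-C difference was 0.657 percentage points in place of 3.37 (exact permutation p = 0.2). Levels of different heavy chains also rest on how well the alleles of A549 align to the reference, which was not examined here.

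**Figure D3:**
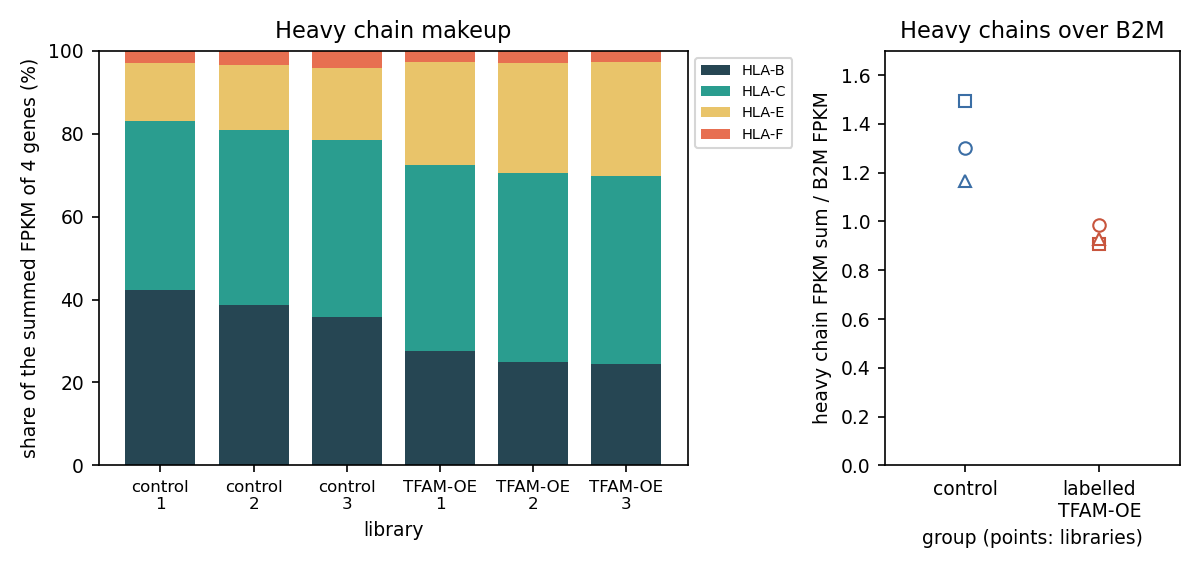
Share (%) of each heavy chain in the summed FPKM of the 4 heavy-chain members, as a stacked bar for each of the 6 libraries. Beside it is the FPKM sum of these 4 genes over B2M FPKM per library. HLA-B shrinks from a mean of 38.9% in control to 25.7% in the libraries labelled TFAM-OE, while HLA-E grows from 15.6% to 26.2%, and the ratio to B2M is below 1 in the libraries labelled TFAM-OE only.

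The heavy-chain sum itself was 594, 528 and 396 FPKM in control and 174, 140.3 and 130.3 FPKM in the libraries labelled TFAM-OE. Divided by B2M it was 1.30, 1.50 and 1.17 in control and 0.985, 0.908 and 0.927 in the libraries labelled TFAM-OE. The ratio was lower in all 3 of the latter by a mean of -0.381 (exact permutation p = 0.1, the smallest possible), and by -0.251 when computed from CPM. The TAP1 to TAP2 ratio was 14.7, 17.8 and 19.9 in control and 19.6, 15.5 and 12.7 in the libraries labelled TFAM-OE, so the groups overlapped (exact permutation p = 0.6).

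The members were also compared by profile, as the root mean square difference of log2 CPM centred over the 6 libraries, where smaller values mean closer profiles. Such profiles contain the difference between the groups, so the distances are not independent of the fold changes given above. TAP2 and HLA-E were the closest pair at 0.144, followed by TAP1 and NLRC5 at 0.158. B2M was nearest to HLA-E (0.172), HLA-C to B2M (0.213), HLA-F to HLA-C (0.251) and HLA-B to HLA-F (0.262). TAPBP stood apart, at 0.411 from its nearest member TAP2 and 1.19 from HLA-B. Among 13118 genes outside the members and the pathway lists, those nearest to the mean member profile were IFIT5, an interferon-induced RNA-binding protein, at 0.0788, PPM1K, a mitochondrial phosphatase, at 0.0796, RP11-186B7.4 at 0.102, HMOX1, which degrades haem, at 0.104, and DHRS9, a retinol dehydrogenase, at 0.113.

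The promoters of 7 members, from 250 bases before the transcription start to 50 after it, were read from RefSeq (GRCh38.p14), with 2 windows for TAP1. HLA-E and NLRC5 had none in the table. Searched on both strands, the core of the interferon-stimulated response element, GAAANNGAAA, occurred in 3.57% of 35116 promoter windows and in 5 of the 7 members (HLA-F, B2M, TAP1, TAP2 and TAPBP). A shorter form, GAANNGAAA, added after the sequences were seen, occurred in 7.66% of windows and in HLA-B, HLA-C and TAP2, where it overlaps the core match. The gamma-activated site TTCNNNGAA (7.66% of windows) was found in the second TAP1 window. The Y box CCAAT (34.6%) was found in 5 members, the X2 core TGACG (24.6%) in 4 (HLA-B, HLA-C, B2M and TAP2), and a match to the NF-kappaB motif (5.91%) in 5. A match is a description of letters and not a bound site.

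The stretches around the response element are shown because these letters recur in genes that fell and in TAPBP, which did not pass. Capitals mark the match, on either strand, and adjoining matches are run together. Each is written 5′ to 3′ on the strand of its gene:
HLA-B (chr6:31357316-31357345, minus strand): actcccctgagTTTCACTTCttctcccaac
HLA-C (chr6:31272225-31272254, minus strand): actcccctgagTTTCACTTCtcccaacctg
HLA-F (chr6:29723268-29723297, plus strand): ctccccagagTTTCTCTTTCtctcccaacc
B2M (chr15:44711366-44711395, plus strand): actctaaGAAAAGGAAACTGAAAacgggaa
TAP1 (chr6:32853816-32853845, minus strand): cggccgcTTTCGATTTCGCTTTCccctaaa
TAP2 (chr6:32838778-32838807, minus strand): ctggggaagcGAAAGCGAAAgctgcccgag
TAPBP (chr6:33314079-33314105, minus strand): tttggagGAAAGTGAAAGTGAAAggag

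HLA-B and HLA-C carried the same letters at the match, while B2M, TAP1 and TAPBP each held a pair of core matches that overlap. TAPBP, with a log2 fold change of -0.08, and B2M, with -1.25, thus shared this feature of the letters, though not its distance from the RefSeq start. Relative to the RefSeq transcription start, the pair ran from -144 to -129 in B2M and from -20 to -5 in TAPBP. In both genes the GENCODE span given above begins further upstream and takes in the stretch, so these distances depend on the start used. The larger promoter module of classical heavy chains is shown for HLA-C, with the NF-kappaB match, the short response element, the X2 core and a Y box on each strand in capitals, in that order from 5′ to 3′:
HLA-C (chr6:31272168-31272271, minus strand): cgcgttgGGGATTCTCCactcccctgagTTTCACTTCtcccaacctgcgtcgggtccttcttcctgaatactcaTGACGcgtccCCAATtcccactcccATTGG

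Peptide supply was described with 16 genes of the proteasome, its activators and cytosolic peptidases, of which 4 passed as lower and 0 as higher (median log2 fold change -0.10), while DESeq2 gave 1 as higher. At an unadjusted p under 0.05 in edgeR, 1 gene was higher in this list and 1 in each of the 4 lists that follow, none of which had a higher gene past the adjusted threshold in edgeR or DESeq2. The members of these lists were written down with earlier results of these data known. PSMB9, PSMB8 and PSMB10 encode the catalytic subunits that replace the constitutive ones in the immunoproteasome. PSMB9 stood at 48.2, 71.0 and 64.6 FPKM in control and at 30.4, 28.4 and 22.9 in the libraries labelled TFAM-OE (log2 fold change -1.14, adjusted p = 0.00619). PSMB8 (-1.003, adjusted p = 0.00485) and PSMB10 (-0.64, adjusted p = 0.038) were also lower. PSMB10 did not pass without control replicate 1 (adjusted p = 0.1), 2 (0.17) or 3 (0.068) or TFAM-OE replicate 2 (0.17). Their constitutive counterparts did not pass, with log2 fold changes of -0.01 for PSMB5, -0.07 for PSMB6 and -0.34 for PSMB7, though PSMB7 passed without TFAM-OE replicate 1 (-0.47, adjusted p = 0.033). LAP3, a leucine aminopeptidase, was at 51.3, 50.8 and 50.1 FPKM in control and at 25.7, 23.4 and 24.2 in the libraries labelled TFAM-OE (-1.03, adjusted p = 0.000273).

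Of 11 genes for peptide trimming and assembly in the endoplasmic reticulum, 1 passed as lower and 0 as higher (median -0.28). That gene was ERAP1, an aminopeptidase that trims peptides to fit class I, at -0.82 (adjusted p = 0.0111). It did not pass without control replicate 1 (adjusted p = 0.068), control replicate 2 (0.061) or TFAM-OE replicate 2 (0.07). Its partner ERAP2 was at -1.02 with an adjusted p of 0.0515. It passed without control replicate 3 (adjusted p = 0.021) or TFAM-OE replicate 3 (0.022), and stood at -0.64 without control replicate 1 (0.2). The chaperones CALR (0.24) and CANX (-0.39) and the disulphide isomerase PDIA3 (-0.12), which work beside tapasin, did not pass, though CANX passed without TFAM-OE replicate 3 (-0.57, adjusted p = 0.008).

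Among 18 tested regulators of class I promoters, 2 passed as lower and 0 as higher (median -0.08). STAT2, a transcription factor of the type I interferon response, was at 10.8, 14.1 and 15.3 FPKM in control and at 6.95, 6.48 and 6.03 FPKM in the libraries labelled TFAM-OE. The groups were apart, and the log2 fold change was -1.02 (adjusted p = 0.00552). IRF1, which binds the response element, was at -0.61 (adjusted p = 0.024). IRF1 did not pass without control replicate 1 (adjusted p = 0.1), 2 (0.12) or 3 (0.054) or TFAM-OE replicate 2 (0.12). IRF9 had at most 5 reads in a library and was not tested. The RFX subunits bind class II promoters and, beside NLRC5, class I promoters. They did not pass, with RFX5 at 0.14, RFXANK at 0.35 (adjusted p = 0.033 without TFAM-OE replicate 3) and RFXAP at -0.23.

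**Figure D4:**
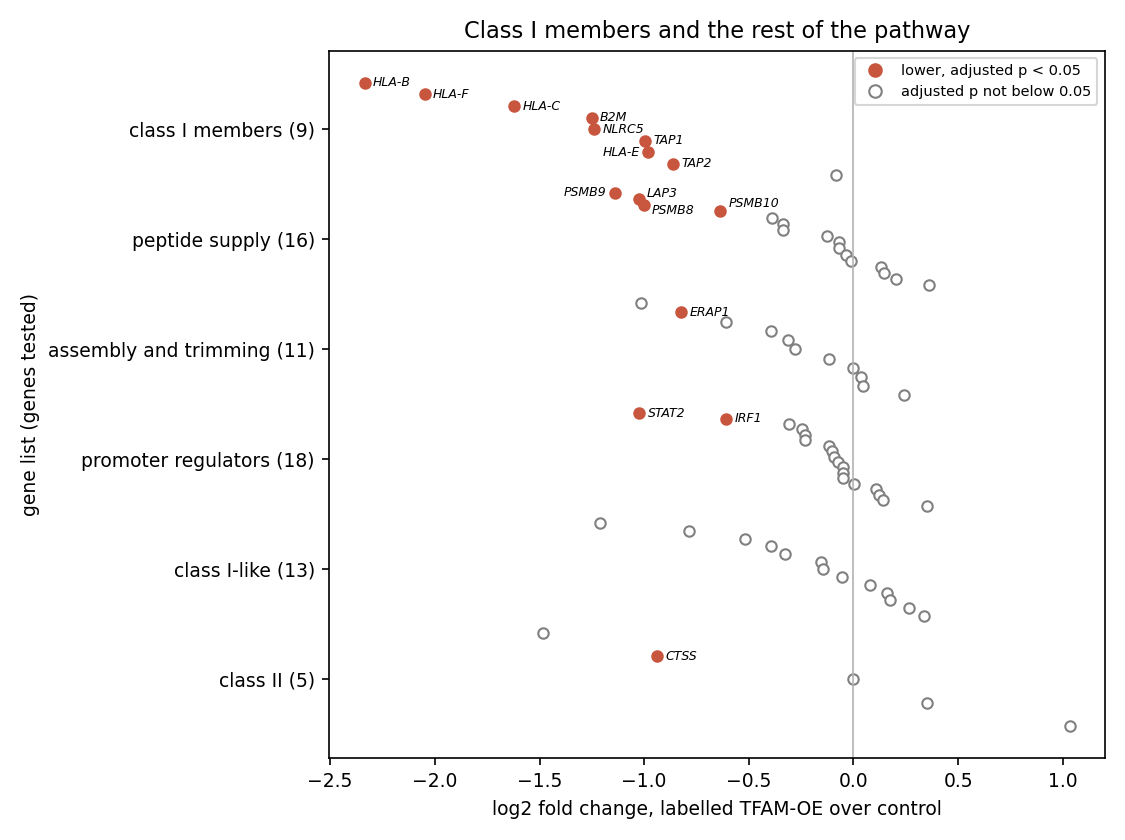
Log2 fold change of every tested gene of the 9 members and 5 pathway lists, with filled points for genes lower at an adjusted p below 0.05 and open points for the others. In the members 8 points are filled, in peptide supply 4 of 16, in assembly and trimming 1 of 11, in regulators 2 of 18, in class I-like genes 0 of 13 and in class II 1 of 5.

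Class I-like genes, a list of relatives of the heavy chains that also holds the pseudogenes HLA-H and HLA-L, had 0 of 13 tested genes past the threshold in either direction in edgeR's test (median -0.15) and 1 lower with DESeq2. At an unadjusted p under 0.05, 4 of these genes were lower, both pseudogenes included, and 1 higher. MR1, which presents microbial vitamin metabolites, stood at a log2 fold change of -0.39 (adjusted p = 0.063), and passed without TFAM-OE replicate 1 (adjusted p = 0.026). The class II pathway was close to silent, with HLA-DRB1 and HLA-DRB5 at 1 read each in all libraries together, and 5 of its 15 genes could be tested. CIITA, the class II counterpart of NLRC5, had group means of 2.10 CPM in control and 2.09 CPM in TFAM-OE, with overlapping libraries. CD74 (log2 fold change -1.48, adjusted p = 0.106) and HLA-DMB (1.03, adjusted p = 0.149) did not pass in edgeR. Each had at most 24 reads in a library. The gene that passed was CTSS, a lysosomal protease with roles beyond class II, at -0.94 (adjusted p = 0.00771).

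Because 7 members lie in the MHC, the other genes of the stretch from HLA-F to TAPBP (chr6:29722775-33314284) give a local background. Of 114 other tested genes there, 16 passed as lower, 6 as higher and 92 did not pass. With the fold required in addition, 10 were called lower and 1 higher. Over all tested genes 4.81% passed as lower, 3.48% passed as higher and 2.07% were called lower. Genes passing as lower were thus more frequent in the stretch than over all tested genes, although its median log2 fold change was -0.02. Those with the smallest p-values among protein-coding genes outside the lists were C6orf48 (-1.07), XXbac-BPG246D15.9 (-0.75, the readthrough gene described with TAP2), XXbac-BPG116M5.17 (-1.21), TNXB (-1.99), an extracellular matrix gene with a near-identical partial copy in the MHC, and PPP1R10 (-0.63), a subunit of protein phosphatase complexes. PPP1R10 did not pass without control replicate 1 (adjusted p = 0.07), control replicate 2 (0.069) or TFAM-OE replicate 2 (0.083). HSD17B8, a short-chain dehydrogenase gene near TAPBP, was higher (1.21, adjusted p = 0.0155) but not without control replicate 2 or TFAM-OE replicate 2 (adjusted p = 0.073 in both).

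**Figure D5:**
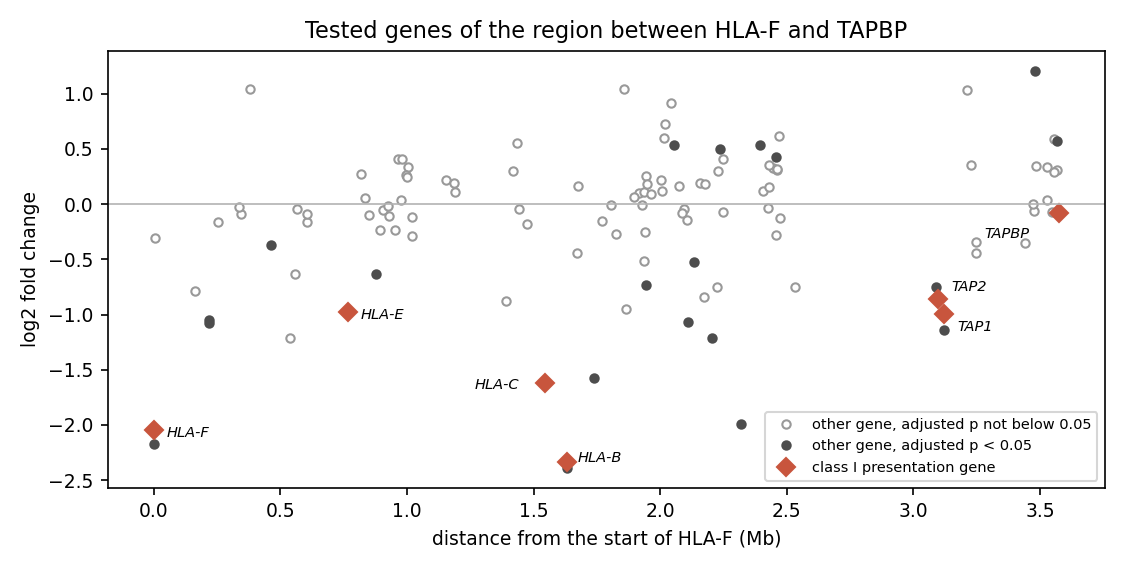
Log2 fold change of the tested genes between HLA-F and TAPBP against distance from the start of HLA-F (Mb), with diamonds for the 7 members there, filled circles for other genes past the threshold and open circles for the rest. The other genes have a median of -0.02, though some lie as low as the members, the lowest being the pseudogene inside HLA-B at -2.39.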

How the data were processed

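RNA with a poly(A) tail was measured in 6 libraries of A549 cells, 3 control and 3 labelled TFAM-OE, grouped by their labels. Reads were trimmed by the authors with the FASTX-Toolkit (0.0.13), those under 16 nt were dropped, and TopHat2 placed the remainder on GRCh38 with up to 4 mismatches. The deposited values are, per gene and library, raw counts of uniquely mapped reads and the FPKM the authors derived from them. How reads were assigned to genes (program, annotation, strand) is not given in the sources used here. Unused value columns numbered 0.

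Counts went into the quasi-likelihood test of edgeR (4.0.16, in R 4.3.3), two-sided, with TMM scaling, no covariate and Benjamini-Hochberg adjustment over all genes kept by filterByExpr. That filter was used because the fit over every gene with a read gave infinite prior degrees of freedom, one spread for all genes, against 5.98 with it. FPKM values were used as deposited for levels and shares, with an exact permutation test. CPM are TMM-scaled. Totals are given in the report and cover counting error only, without molecular identifiers.

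The members and lists were chosen with earlier results of these data known. From each list the text names passing genes with the 4 largest changes and their partner subunits, and from the MHC region the 5 protein-coding genes with the smallest p-values. HSD17B8, and the list genes named that did not pass, were chosen after their values were seen. Some genes are not reported here and stand in no list count. Positions come from GENCODE 44, which held 97.2% of the gene identifiers, and promoters from RefSeq. The tests were checked on simulated counts, and figures were drawn with matplotlib (3.10.9). Alternatives were other filters and scalings, the exact test of edgeR, DESeq2 (1.42.0), voom and trend fits in limma (3.58.1), CPM for shares, each library left out, the replicate number as a block, and 2 added after the data were seen (robust dispersion and the TAP2 readthrough reads).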

Additional observations from a re-analysis of the deposited data

How the results depend on the processing

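The 8 members that passed as lower did so under all 18 alternatives, 0 passed as higher, and between 5 and 7 had a fold of at most 0.5 as well, the 7 by library size alone, by limma-trend with 0.1 added and without TFAM-OE replicate 1. Their median log2 fold change of -1.24 was -1.01 with limma-trend on log2(FPKM + 1), which shrinks low genes by construction, and ran from -1.38 (without TFAM-OE replicate 1) to -1.05 (without TFAM-OE replicate 3) with a library left out. Same-numbered libraries of the groups correlated at -0.205, -0.00343 and -0.248 in their deviations. Differently numbered ones reached 0.235 (control replicate 3 with TFAM-OE replicate 1). Deviations from the mean of 3 libraries constrain each other, so these values cannot decide whether same-numbered cultures were handled together. With the replicate block 8 members still passed (median -1.25), genes passing over all genes went from 796 lower and 576 higher to 285 and 74, and lower genes to 0 in assembly and 0 in regulators, while the shares kept their mean differences (exact permutation p = 0.25, the smallest possible). Under the block ERAP1 (adjusted p = 0.074), PSMB10 (0.13), STAT2 (0.05), IRF1 (0.085), PPP1R10 (0.082), HSD17B8 (0.062) and PSMB8-AS1 (0.073) did not pass. With no filter the lower genes numbered 4 in assembly, 3 in class I-like and 2 in class II (all genes 1485 lower, 1034 higher). DESeq2 gave 3 lower in assembly, 1 lower in class I-like and 1 higher in peptide supply, and edgeR's exact test 1236 lower and 980 higher over all genes. With a library left out, lower genes ran from 0 to 4 in assembly (0 without control replicate 1 or 2 or TFAM-OE replicate 2, 4 without TFAM-OE replicate 3), from 3 to 7 in peptide supply (7 without TFAM-OE replicate 1), from 1 to 3 in regulators (1 without control replicate 1, 2 or 3 or TFAM-OE replicate 2), from 0 to 1 in class I-like and from 1 to 2 in class II, and higher genes from 0 to 1 in peptide supply, regulators, class I-like and class II. Over all genes they ran from 238 lower (without control replicate 2) to 1782 (without TFAM-OE replicate 3). Some unpassed log2 fold changes changed sign. CIITA was 0.00525 with no filter and 0.00562 with DESeq2, and with a library left out it ran from -0.19 to 0.11, PSMB5 from -0.13 to 0.11, PSMB6 from -0.16 to 0.045 and HLA-F-AS1 from -0.70 to 0.47. The cause was not tested. With 3 libraries a group, exact tests of shares cannot go below 0.1.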
